A study of Mus musculus with 7 samples.

Results

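RAB GTPases are the largest branch of the RAS superfamily and act as identity tags of intracellular membranes. The genes described here were chosen by gene symbol: every protein-coding mouse gene whose symbol is Rab, a number and at most 1 further letter, which gave 59 of the 35727 genes in the count table. No gene was put in or left out for its level, but the family itself was picked with results of this comparison known, so the counts of changed members below are descriptions and not independent evidence.

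The libraries were polyA RNA-seq of red fluorescent protein-positive (RFP+) tumour cells sorted from mouse sarcomas of 2 models of undifferentiated pleomorphic sarcoma, which is a soft-tissue cancer that resembles no normal cell lineage. The Ccne1 group (4 libraries) is labelled p53 knockout with overexpression of Ccne1, which encodes cyclin E1. The Vgll3 group (3 libraries) is labelled p53 knockout with overexpression of Vgll3, a cofactor of TEAD transcription factors. Both groups started from mesenchymal stem cells of female C57/Bl6 p53KO mice, so both lack p53, and both carry a retroviral vector. Each line went 2 times through subcutaneous tumours in female wild-type C57/Bl6 mice, was grown briefly in DMEM with FBS and was transplanted again before sorting. Each model is 1 line, so an effect of the added gene and any other difference between the lines cannot be told apart, and there is no library without an added gene. Whether the libraries of a group are separate tumours or animals is not stated, so p-values here measure spread between libraries, part of which may be technical.

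A RAB protein is switched on when an exchange factor (GEF) loads GTP and off when a GTPase-activating protein (GAP, usually with a TBC domain) speeds hydrolysis. In its GTP form it recruits effectors, such as tethers, motor adaptors and coat partners, to the membrane it marks. New RAB proteins are escorted by REP proteins (Chm and Chml) to a geranylgeranyl transferase, which attaches lipid to cysteines at the carboxyl end, and GDI proteins later extract the lipidated RAB from membranes. In mesenchymal and tumour cells RABs route secreted matrix proteins out of the cell and return integrins and receptors to the surface.

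The lipid-bearing end is shown here for the members on which the results turn, because it is the stretch that ties a RAB to its membrane and because it differs between some paralogs whose levels differed. Each line gives the last 27 coding bases and the stop codon from the GENCODE M21 transcripts (GRCm38, equal to mm10), 5′ to 3′ on the gene's own strand, with in-frame cysteine codons in capitals.
Rab38: gtcagcTGCtctggcTGTgccaaatcctag
Rab32: acaacaaagcccaggtcccagTGCTGCtga
Rab3d: cccccacagccgagcagcTGCagcTGTtag
Rab8b: accagtttcttccgcTGTtctctgctttga
Rab8a: accagcttcttccggTGCagtctcctgtga
Rab2a: ggacagcaggcagggggaggcTGCTGTtga
Rab15: gcaaactcttcaaagaccTGCtggTGCtga
Rab6b: ccggccagcgagggcggcTGCtccTGTtaa
Rab6a: ccagtcaatgaaggcggcTGTtccTGCtaa
Rab9: aagcccaagccaaactcatctTGCTGTtga
Rab37: aagcgctccagcTGCTGCtcctttgtgtga
Rab5c: gccagccggagccagTGCTGCagcaactga
All 59 members had a cysteine codon among the last 4 sense codons. In 15 members the last 2 codons both encode cysteine, as in Rab32, Rab2a and Rab9. In 20 the last codon and the codon 2 before it do, as in Rab3d, Rab15 and the Rab6 pair. In 15 the fourth codon from the end is the only cysteine codon among those 4, as in Rab38, Rab37 and the Rab8 pair, and 6, among them Rab5c, have cysteine at the fourth codon from the end and at the codon after it. The remaining 3 have another arrangement. Rab32 and Rab38, which are paralogs, therefore carry different ends, while the Rab6 and Rab8 pairs share theirs at the level of codon positions. Changed members were found with each arrangement, where 51.9% of all genes tested were changed: 8 of 13 tested members with both of the last 2 codons, 8 of 15 with the last codon and the codon 2 before it, 11 of 13 with the fourth codon alone, 3 of 4 with the fourth codon and the codon after it, and 2 of 2 with another arrangement. Nothing is read from these counts. The Rab38 end lies at chr7:88490731-88490760 (plus strand), the Rab32 end at chr10:10546302-10546331 (minus strand) and the Rab15 end at chr12:76800243-76800272 (minus strand), each inside the exon that holds the stop codon.

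Library totals ranged from 21725890 to 53610300 estimated counts, and levels are given as CPM, which sets every library to the same total, after TMM scaling. A gene was called changed at an edgeR quasi-likelihood adjusted p under 0.05, with Benjamini-Hochberg adjustment over the 13740 genes tested, and log2 fold changes are positive where the libraries labelled Vgll3 were higher. Vgll3 itself measured 38.0 to 56.2 CPM in libraries labelled Ccne1 and 216 to 284 CPM in those labelled Vgll3 (log2 fold change 2.31 and edgeR adjusted p = 1.2e-05). Ccne1 measured 6.73, 9.24, 18.3 and 16.7 CPM in the libraries labelled Ccne1 and 12.7, 15.1 and 17.0 CPM in those labelled Vgll3, so its level was no higher in the group named after it (edgeR adjusted p = 0.609). Whether RNA from the vector is counted under this gene is not stated, so an uncounted added gene and a wrong label cannot be told apart. Trp53, the gene of p53, had 63.1 to 69.7 CPM and 66.9 to 75.4 CPM in the 2 groups, and since the deleted part is not stated these values do not check the knockout. Vgll3 replicate 3 stood apart, with correlations of 0.959 and 0.963 to its group mates where the remaining within-group pairs reached 0.981 to 0.988. The 6 mesenchymal markers had counts in every library and summed to 21426 to 26716 CPM in libraries labelled Ccne1 and 33658 to 40634 CPM in those labelled Vgll3. The sum followed the collagens Col1a1 and Col1a2: 3 of the markers rose and 2 fell, the latter being Vim and Pdgfra (log2 fold changes -1.67 and -2.02). In bulk libraries, fewer cells of a kind and less RNA per cell cannot be told apart.

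Of the 59 RAB genes, 58 had a count in some library and 47 passed the filter on low counts. The 12 untested members reached at most 0.335 CPM in any library. They include Rab25 and Rab17, known from epithelia, Rab3c, known from neurons, and Rab44. Rab39 had 0 counts in all 7 libraries, and the upper limit that this leaves, 3 counts, corresponds to 0.0577 to 0.136 CPM for counting error only.

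Among the 47 tested members, 7 were higher and 25 lower in the Vgll3-labelled libraries, and 15 were not called. That is 68.1% called, where 51.9% of all genes tested were called, 25.1% higher and 26.8% lower. The median log2 fold change of the tested members was -0.30, against 0.01 for all genes tested. Most changes were modest: 6 members were called with at least a 2-fold difference, which is 12.8% of those tested beside 16.7% of all genes. The groups did not overlap for 35 members, 10 higher and 25 lower, or 74.5% beside 55.7% of all genes. Because these are the values with which the family was picked, nothing is read from the distance between the shares.

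**Figure D1:**
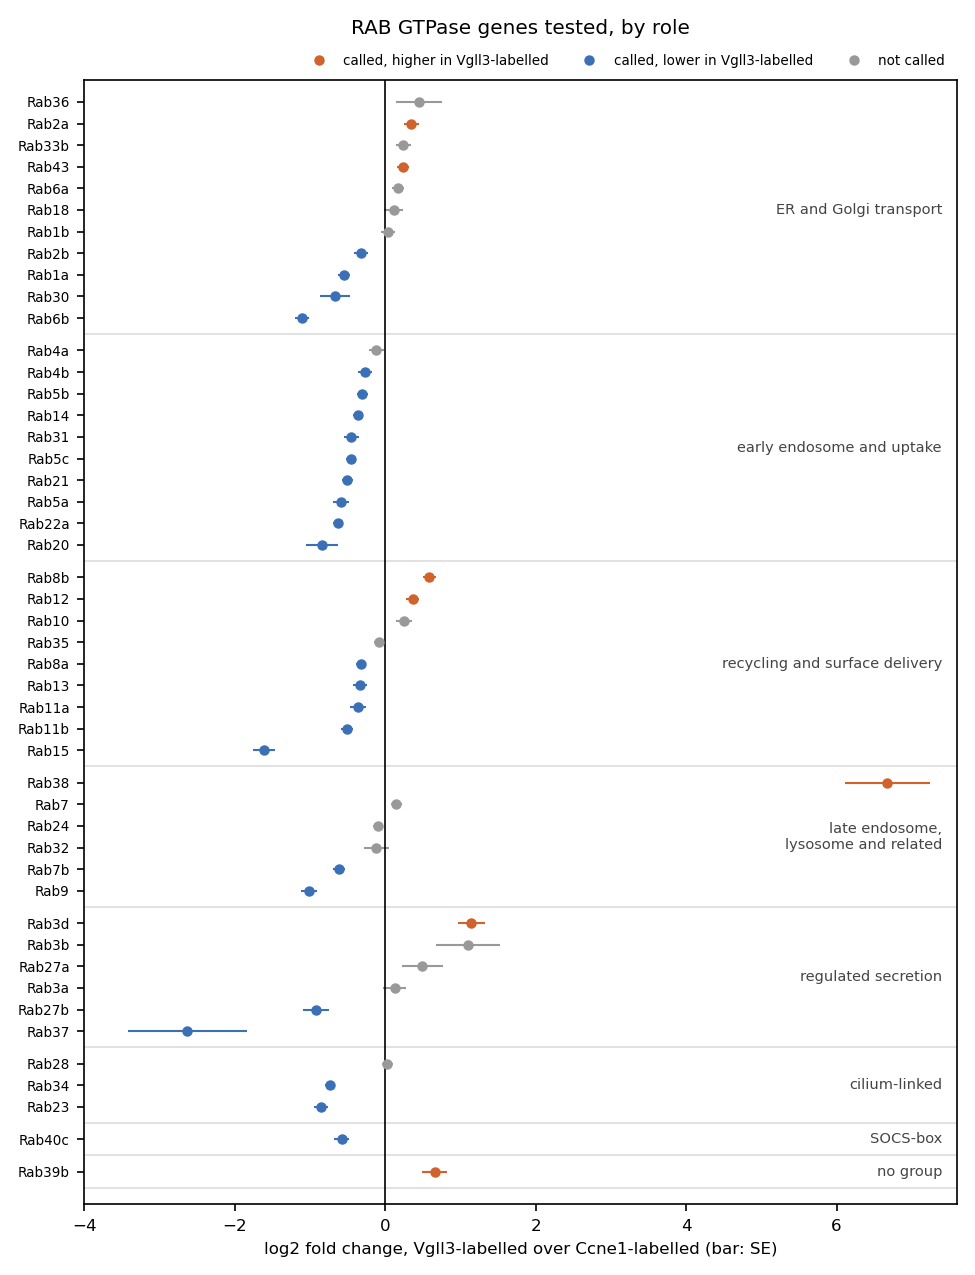
Log2 fold change (x axis, Vgll3-labelled over Ccne1-labelled libraries, bars are the standard error) of the 47 RAB genes tested, grouped by role. Rab38 stands at 6.68, most of the others lie between -1 and 1, and 9 of the 10 early endosome genes are on the lower side and called.

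The family's summed level overlapped between the groups. Summed over all members and scaled by exon length, the level was 987, 1052, 1026 and 1011 CPM per kb in the Ccne1-labelled libraries and 1015, 974 and 877 CPM per kb in those labelled Vgll3. The groups overlap, and the means were 1019 ± 27.2 (SD, n = 4) and 955 ± 70.8 (SD, n = 3), a ratio of 0.938. The 5 most abundant members made up 49.1% of the family's summed length-scaled level. On that scale Rab2a, which works between endoplasmic reticulum (ER) and Golgi, led with 153.5 and 195 CPM per kb (Ccne1 and Vgll3 means). Rab7, the main RAB of late endosomes, followed with 125 and 138. Rab31, an early endosome and Golgi RAB, had 76.9 and 56.3, Rab5c, an early endosome RAB, had 68.3 and 49.6, and Rab10, which guides vesicles to the plasma membrane, had 52.7 and 62.7 CPM per kb.

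Among late endosome and lysosome RABs, Rab38 separated the models most widely of all tested members. Rab38 (chromosome 7, 88430273 to 88491572, plus strand) is best known for carrying melanin enzymes to melanosomes and for the biogenesis of other lysosome-related organelles. It measured 0, 0.0962, 0.0929 and 0.0363 CPM in libraries labelled Ccne1, 9 counts in total, and 8.04, 9.45 and 3.55 CPM in those labelled Vgll3, 731 counts in total. It was nearly silent in the first group and present in every library of the second, with its lowest value there in replicate 3. Rab38 passed the filter on low counts only through the Vgll3-labelled libraries, so that it was tested at all depended on the difference. The fitted log2 fold change was 6.68 ± 0.56 (SE), with an edgeR adjusted p of 3.21e-05, and with 9 counts on 1 side its exact size is uncertain.

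Its paralog Rab32, which shares its melanosome work and also sits on mitochondria, measured 8.01, 10.6, 7.68 and 10.6 CPM in libraries labelled Ccne1 and 7.42, 9.56 and 8.60 CPM in those labelled Vgll3. The groups overlap (log2 fold change -0.12 and edgeR adjusted p = 0.563). Rab38 therefore went from 0.898% ± 0.79 (SD, n = 4) to 53.02% ± 13.1 (SD, n = 3) of the pair's length-scaled level. The longest stretch of identical coding sequence between the pair was 14 bases.

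The level of other melanocyte genes stands beside Rab38. The 5 melanocyte markers (Tyr, Tyrp1, Dct, Pmel and Mlana) summed to 0.618 to 1.04 CPM in libraries labelled Ccne1 and 0.729 to 3.85 CPM in those labelled Vgll3, and Tyr, the 1 of them abundant enough to test, was not called (log2 fold change 1.54 and edgeR adjusted p = 0.0938). Its value rests on Vgll3 replicate 3, being 0.00 without that library, and it was called without Vgll3 replicate 1. Tyrp1 and Mlana were at 0 in all Ccne1-labelled libraries and had 2 and 1 counts in the Vgll3-labelled ones. Tyr, which encodes tyrosinase, was highest in Vgll3 replicate 3 at 2.94 CPM, the library of that group with the lowest Rab38. The part of such cells in the Rab38 value was not tested. The exchange factor of RAB32 and RAB38 is the BLOC-3 complex of Hps1 and Hps4, and both subunits fell in the Vgll3-labelled libraries (log2 fold changes -0.58 and -0.34, edgeR adjusted p = 0.00273 and 0.0362), but the Hps4 call was lost with DESeq2, without the low-count filter and when any library other than Vgll3 replicate 2 was left out. Ankrd27 (VARP), an effector of the pair and itself an exchange factor, rose by 0.34 on the log2 scale (edgeR adjusted p = 0.0223), a call lost without Vgll3 replicate 2.

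Rab9, which serves the return of mannose 6-phosphate receptors from late endosomes to the Golgi, measured 36.1, 39.5, 39.95 and 33.8 CPM in libraries labelled Ccne1 and 17.9, 16.7 and 20.9 CPM in those labelled Vgll3. The groups stand well apart, and Rab9 fell by 1.01 ± 0.10 (SE) on the log2 scale (edgeR adjusted p = 7.21e-05). Rab7b, which works on the route from endosomes to the Golgi, fell by 0.62 on the log2 scale. Rab7 itself measured 316 to 334 CPM in libraries labelled Ccne1 and 337 to 388 CPM in those labelled Vgll3 and was not called (log2 fold change 0.15 and edgeR adjusted p = 0.116), although its groups do not overlap. It was called with DESeq2, with total-count scaling and without Vgll3 replicate 3. Both Mon1 subunits of its exchange factor fell, Mon1a by 0.39 and Mon1b by 0.64 on the log2 scale. Ccz1, another subunit, was not called, and its groups overlap (log2 fold change -0.14 and edgeR adjusted p = 0.198). The Mon1a call was lost without Ccne1 replicate 2, 3 or 4 and without Vgll3 replicate 1 or 2. Rab24, linked to autophagy, was not called (log2 fold change -0.10).

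**Figure D2:**
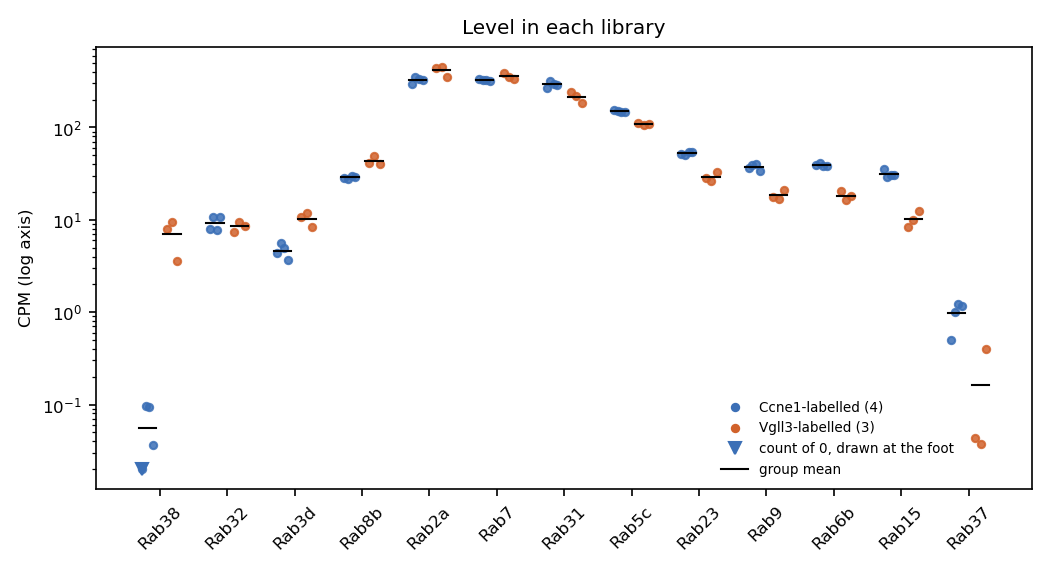
Level of 13 RAB genes in each library (y axis, CPM on a log scale; points are libraries, black lines group means, a triangle a count of 0). Rab38 moves from under 0.1 CPM to between 3.55 and 9.45 CPM while its paralog Rab32 overlaps, and the groups of Rab9, Rab6b and Rab15 stand apart with the Vgll3-labelled libraries lower.

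Most early endosome RABs fell. Of 11 members with this role 10 were tested, 9 fell in the Vgll3-labelled libraries, and Rab4a, a RAB of fast recycling, was the 1 not called (log2 fold change -0.12). The median of the 10 log2 fold changes was -0.46, against 0.01 for all genes tested, of which 26.8% fell. All 3 copies of RAB5, the regulator of endocytic uptake and early endosome fusion, were among those that fell. Rab5c measured 154, 152, 146 and 147 CPM in libraries labelled Ccne1 and 111, 105 and 110 CPM in those labelled Vgll3, 2 tight groups with a wide gap (log2 fold change -0.46 ± 0.06 and edgeR adjusted p = 0.000315). Rab5a fell by 0.59 and Rab5b by 0.30 on the log2 scale. The proportions of the copies overlapped between groups, with Rab5c at 60.4% ± 1.80 (SD, n = 4) and 60.1% ± 2.41 (SD, n = 3) of the summed RAB5 level. The coding sequences of Rab5a and Rab5b share 35 identical bases in a row, which leaves the split of some reads uncertain.

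Rab31 measured 268, 317, 298 and 290 CPM in libraries labelled Ccne1 and 240, 220 and 184 CPM in those labelled Vgll3, with the lowest value in Vgll3 replicate 3 and no overlap (log2 fold change -0.45 ± 0.10 and edgeR adjusted p = 0.00546). Its relative Rab22a fell by 0.63, Rab21, which sorts integrins, by 0.51, and Rab14, which links endosomes and Golgi, by 0.36 on the log2 scale. Rab20, a RAB of early endosomes and phagosomes, had the largest fall of this role, from 5.28, 7.08, 5.64 and 6.69 CPM to 4.44, 2.83 and 3.05 CPM (log2 fold change -0.84 ± 0.21 and edgeR adjusted p = 0.00884). Rab4b fell by 0.27, the smallest called fall of the family. Its call was lost in 8 of 13 alternative analyses, among them DESeq2, total-count scaling and the leaving out of Ccne1 replicate 1 or 3 or Vgll3 replicate 1 or 3.

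Several of these RABs are well known in macrophages, so the markers of that cell type stand beside them. The 10 macrophage markers summed to 59.0 to 79.7 CPM in libraries labelled Ccne1 and 11.7 to 21.2 CPM in those labelled Vgll3, and 1 of the 7 tested was called. That gene was Cd14, at 51.9 to 69.3 CPM and 4.31 to 7.84 CPM, while Ptprc, the pan-leukocyte antigen, measured at most 1.41 CPM in the first group and 3.04 CPM in the second, and Csf1r at most 1.91 and 2.41 CPM. Endothelial markers summed to 37.7 to 109 CPM and 27.3 to 211 CPM, the highest value being that of Vgll3 replicate 3. Of that value Pecam1 alone made 184 CPM. Kdr was also highest in that library (7.36 CPM), while Cdh5, Tek and Emcn were highest in Ccne1 replicate 1 (26.2, 2.14 and 3.09 CPM). All 5 endothelial markers were tested and 0 were called. Epithelial markers summed to 2.04 to 4.74 CPM and 0.151 to 1.00 CPM, with Krt8 called lower. Krt8 had 350 against 12 counts and passed the filter only through the Ccne1-labelled libraries. Erythroid markers summed to 5.02 to 10.03 CPM and 0.189 to 1.93 CPM, with Hba-a1 called lower. Hba-a1 had 900 against 85 counts and passed the filter only through the Ccne1-labelled libraries. Hbb-bs, with 55 against 43 counts, was not called, and its groups overlap (log2 fold change -0.37 and edgeR adjusted p = 0.796). The part of these cell types in the RAB values was not tested.

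In recycling and surface delivery 9 of 10 members were tested, 2 rose and 5 fell, where 25.1% of all genes tested rose and 26.8% fell. Rab15 (chromosome 12, 76797960 to 76822908, minus strand), an endosomal RAB that slows receptor recycling, had the largest fall among members above 5 CPM. It measured 35.3, 29.3, 30.6 and 30.4 CPM in libraries labelled Ccne1 and 8.32, 10.01 and 12.6 CPM in those labelled Vgll3. Every Vgll3-labelled library lay far under every Ccne1-labelled library, and the log2 fold change was -1.61 ± 0.14 (edgeR adjusted p = 3.88e-05). Rab11b and Rab11a, the core RABs of the recycling endosome, fell by 0.51 and 0.36 on the log2 scale. The Rab11a call was lost without Ccne1 replicate 2 or 4 and without Vgll3 replicate 2 or 3. Rab13, a RAB of cell junctions, fell by 0.34.

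The Rab8 paralogs, which carry membrane to the surface and to the primary cilium, moved in opposite directions. Rab8b measured 28.4, 27.7, 30.2 and 28.9 CPM in libraries labelled Ccne1 and 41.2, 48.5 and 40.1 CPM in those labelled Vgll3, a rise without overlap (log2 fold change 0.59 ± 0.09 and edgeR adjusted p = 0.000503). Rab8a, the more abundant copy, measured 90.9, 97.5, 95.2 and 101 CPM against 80.5, 75.9 and 74.4 CPM and fell (log2 fold change -0.32 ± 0.07 and edgeR adjusted p = 0.00349). The share of Rab8b in the length-scaled sum of the pair went from 22.8% ± 1.05 (SD, n = 4) to 35.7% ± 2.70 (SD, n = 3). Rab12, which steers transferrin receptor to lysosomes, rose by a log2 fold change of 0.37. Rab10 measured 170, 189, 191 and 192 CPM against 249, 226 and 185 CPM. Its groups overlap through Vgll3 replicate 3 (log2 fold change 0.25 and edgeR adjusted p = 0.0701), and without that library, as with DESeq2 or total-count scaling, it was called. Rab35 was not called (log2 fold change -0.08).

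Between ER and Golgi 11 of 13 members were tested, 2 rose and 4 fell, where 25.1% of all genes tested rose and 26.8% fell. Rab6b, the copy of the Golgi RAB RAB6 best known from neurons, measured 39.0, 41.8, 38.4 and 38.2 CPM in libraries labelled Ccne1 and 20.3, 16.4 and 18.1 CPM in those labelled Vgll3. The groups are tight and far apart, and the log2 fold change was -1.10 ± 0.09 (edgeR adjusted p = 2.73e-05). The ubiquitous copy Rab6a measured 126 to 134 CPM and 131 to 166 CPM and was not called (log2 fold change 0.17 and edgeR adjusted p = 0.128), though it was without Vgll3 replicate 3. Rab6b went from 18.2% ± 0.47 (SD, n = 4) to 8.47% ± 0.78 (SD, n = 3) of the pair. Neuronal markers were low apart from Tubb3, which was called lower (log2 fold change -0.46 and edgeR adjusted p = 0.00487). The neuronal markers summed to 26.6 to 33.2 CPM in libraries labelled Ccne1 and 19.4 to 22.5 CPM in those labelled Vgll3. Their part in the Rab6b value was not tested.

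Rab2a, the most abundant RAB per length, measured 298, 351, 338 and 323 CPM in libraries labelled Ccne1 and 442, 451 and 355 CPM in those labelled Vgll3. The 2 groups come close at 351 and 355 CPM, the latter being Vgll3 replicate 3 (log2 fold change 0.35 ± 0.10 and edgeR adjusted p = 0.0184). The call was lost without Vgll3 replicate 1 (log2 fold change 0.29) or 2 (0.28). Rab2b, its minor copy, fell by 0.33, a call lost without Ccne1 replicate 2 or Vgll3 replicate 2.

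The RAB1 pair, which is needed for ER to Golgi traffic, differed in balance between the groups. Rab1a measured 187, 210, 208 and 210.5 CPM in libraries labelled Ccne1 and 152, 133 and 133 CPM in those labelled Vgll3, with no overlap (log2 fold change -0.55 ± 0.08 and edgeR adjusted p = 0.000527). Rab1b was not called (log2 fold change 0.04 and edgeR adjusted p = 0.732). The share of Rab1b went from 39.2% ± 3.34 (SD, n = 4) to 49.2% ± 4.17 (SD, n = 3), although 38 identical bases in a row in the coding sequences of the pair leave the split of some reads uncertain. Rab30, a Golgi RAB, fell by 0.67, a call lost without Ccne1 replicate 3 or 4 or Vgll3 replicate 2. Rab43 rose by a log2 fold change of 0.23, a call lost in 7 of 13 alternative analyses, among them those without Ccne1 replicate 1, 3 or 4 and without Vgll3 replicate 1 or 2. Rab33b, a Golgi RAB linked to autophagy, was not called (log2 fold change 0.24) but was with total-count scaling and without Ccne1 replicate 2 or Vgll3 replicate 3.

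RABs of regulated secretion held both directions. Of 9 members 6 were tested, 1 rose and 2 fell, where 25.1% of all genes tested rose and 26.8% fell. Rab3d, a RAB of secretory granules in exocrine cells, measured 4.41, 5.56, 4.96 and 3.67 CPM in libraries labelled Ccne1 and 10.7, 11.8 and 8.37 CPM in those labelled Vgll3, a rise with a clear gap (log2 fold change 1.14 ± 0.18 and edgeR adjusted p = 0.000795). Rab3a, the synaptic vesicle copy, was not called (log2 fold change 0.12). Rab3b measured 0.289 to 0.864 CPM and 1.09 to 1.36 CPM, which do not overlap, but missed the threshold (log2 fold change 1.10 ± 0.42 and edgeR adjusted p = 0.0558). It passed with DESeq2, with limma-voom and without Ccne1 replicate 1. Rab3d went from 25.5% ± 2.36 (SD, n = 4) to 39.7% ± 3.76 (SD, n = 3) of the RAB3 sum. The coding sequences of Rab3b and Rab3d share 33 identical bases in a row, so the split of some reads is uncertain.

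Rab27b, which docks exosomes and secretory vesicles at the plasma membrane, measured 12.01, 15.4, 12.2 and 11.5 CPM in libraries labelled Ccne1 and 8.27, 5.37 and 6.53 CPM in those labelled Vgll3 (log2 fold change -0.92 ± 0.17 and edgeR adjusted p = 0.00189). Its groups do not overlap. Rab27a, which shares that work and links melanosomes to myosin Va, measured 1.27 to 1.45 CPM and 1.56 to 2.30 CPM and was not called (log2 fold change 0.49 and edgeR adjusted p = 0.159). Rab27a went from 22.7% ± 2.86 (SD, n = 4) to 44.0% ± 9.98 (SD, n = 3) of the pair. Rab37, a mast cell and secretory granule RAB, measured 0.500, 1.00, 1.24 and 1.16 CPM against 0.0429, 0.0378 and 0.402 CPM, which is 135 against 15 counts. It was low throughout, and its fall (log2 fold change -2.63 ± 0.79 and edgeR adjusted p = 0.0206) rests on few counts, with the filter passed only through the Ccne1-labelled libraries. The call was lost without Ccne1 replicate 3 and without Vgll3 replicate 1 or 2, and the log2 fold change reached -4.46 when Vgll3 replicate 3 was left out and -3.25 with limma-voom. Neutrophil and mast cell markers summed to at most 1.36 CPM in libraries labelled Ccne1 and 1.47 CPM in those labelled Vgll3, and their part in the Rab37 value was not tested.

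**Figure D3:**
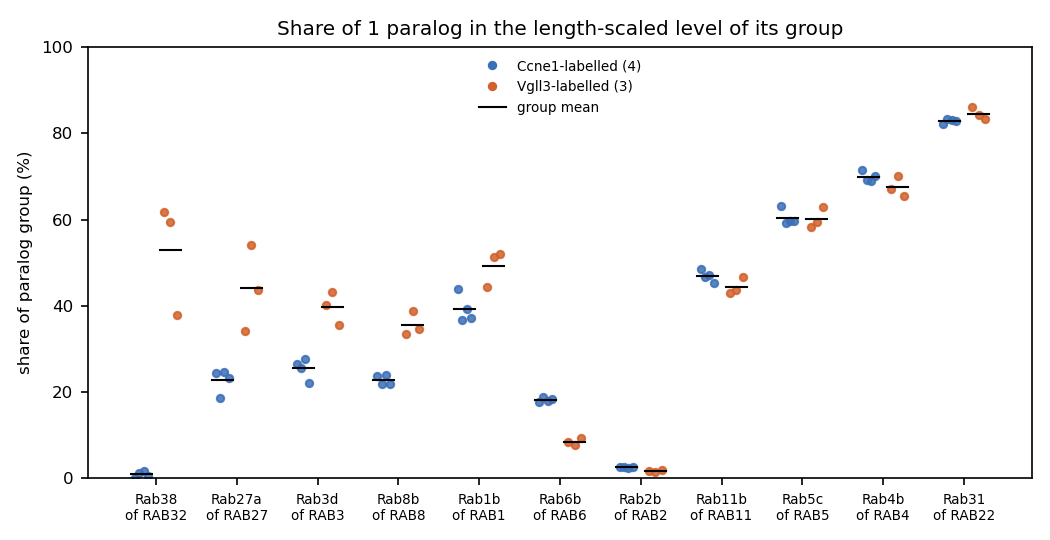
Share of 1 paralog in the summed length-scaled level of its group (y axis, percent of CPM per kb; points are libraries, black lines group means). Shares of Rab38, Rab27a, Rab3d, Rab8b and Rab1b are higher and those of Rab6b and Rab2b lower in every Vgll3-labelled library, while the 4 groups at the right (RAB11, RAB5, RAB4 and RAB22) overlap.

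Of the 3 cilium-linked members, 2 fell, where 26.8% of all genes tested fell. Rab23, a negative regulator of Hedgehog signalling that acts at the primary cilium, measured 51.8, 50.6, 53.6 and 54.8 CPM in libraries labelled Ccne1 and 28.7, 26.0 and 32.8 CPM in those labelled Vgll3, far apart (log2 fold change -0.85 ± 0.09 and edgeR adjusted p = 8.87e-05). Rab34, needed for an early step of cilium assembly, measured 87.7 to 90.5 CPM and 50.7 to 55.2 CPM (log2 fold change -0.74 ± 0.06 and edgeR adjusted p = 3.28e-05). Rab28 was not called (log2 fold change 0.03). Among RAB-like genes outside the symbol rule, 6 of 7 were tested and 1 was called, where 51.9% of all genes tested were called. That gene was Ift27, a RAB-like subunit of the intraflagellar transport machinery of cilia, which fell by 0.60 on the log2 scale (edgeR adjusted p = 0.00907). Rab40c, which has a SOCS box that recruits a ubiquitin ligase, fell by 0.58, and Rab39b, a RAB of neurons and autophagy, rose by 0.66 on the log2 scale.

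The machinery that lipidates and recycles RABs was mostly not called. Of 8 prenylation and GDI genes, 3 fell and 0 rose, where 26.8% of all genes tested fell and 25.1% rose. The same shares of all genes apply to the lists that follow. Rabggta, the alpha subunit of RAB geranylgeranyl transferase, measured 40.04, 46.4, 39.6 and 36.8 CPM in libraries labelled Ccne1 and 20.3, 16.1 and 19.3 CPM in those labelled Vgll3 (log2 fold change -1.13 ± 0.11 and edgeR adjusted p = 6.48e-05). Its 2 groups are well separated. Chm, the escort protein REP1, fell by 0.36.

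Of 38 exchange factors and their subunits tested, 10 rose and 13 fell. Rin2, an exchange factor for RAB5 that couples RAS to endocytosis, had the largest fall, from 452.5, 488, 398.5 and 399.5 CPM to 70.3, 63.5 and 82.0 CPM (log2 fold change -2.60 ± 0.12 and edgeR adjusted p = 3.05e-06). Even the highest Vgll3-labelled library was far under every Ccne1-labelled library. Among other RAB5 exchange factors, 3 fell: Rin1 by 0.61, Rabgef1 by 0.46 and Gapvd1 by 0.23 on the log2 scale (lost without Ccne1 replicate 3, Vgll3 replicate 1 or Vgll3 replicate 3). Madd, which activates RAB3 and RAB27, fell by 0.68, and Smcr8 fell by 1.08. Among DENN-domain genes, St5 rose by 0.84, and Dennd2d rose by 3.06 from under 0.23 CPM to between 0.803 and 1.59 CPM, which is 21 against 139 counts, and like Rab38 it passed the filter only through the Vgll3-labelled libraries.

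**Figure D4:**
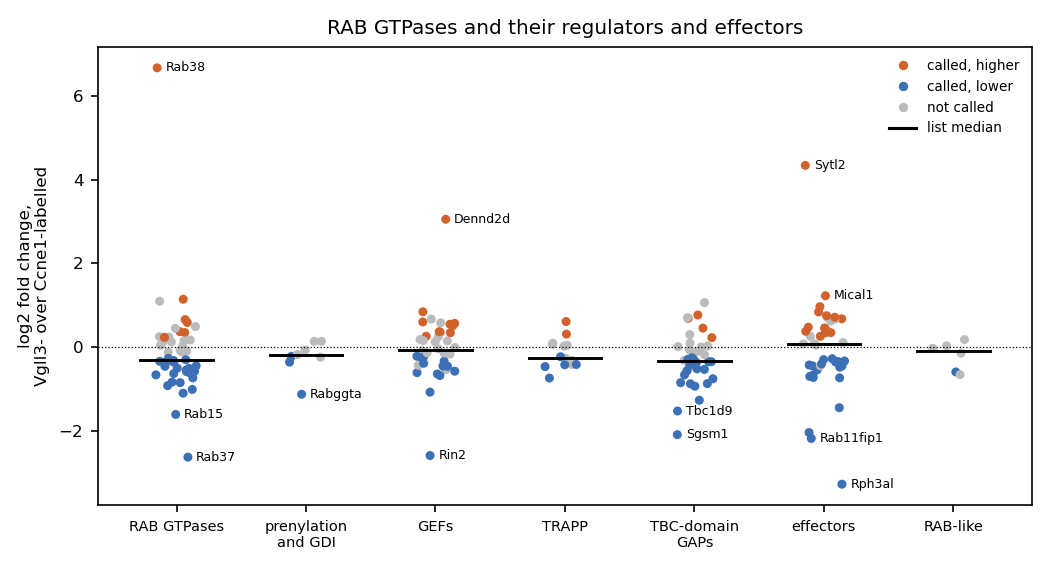
Log2 fold change (y axis, Vgll3-labelled over Ccne1-labelled) of the tested RAB genes, at the left, and of 6 lists of RAB regulators, effectors and RAB-like genes (points are genes, black lines list medians). Rin2, Rabggta and Rab11fip1 lie low and Sytl2 and Dennd2d high, and most coloured points among the TBC-domain GAPs are on the lower side.

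Of 14 TRAPP subunits, which form tethers and the exchange factors of RAB1 and RAB11, 2 rose and 5 fell. Trappc6a (log2 fold change -0.74), Trappc11 (-0.47) and Trappc5 (-0.43) had the largest falls, and Trappc12 (0.61) and Trappc8 (0.31) were the ones that rose. The call of Trappc8 was lost without Vgll3 replicate 1. Of 36 TBC-domain GAPs tested, 4 rose and 20 fell, with a median log2 fold change of -0.33. Sgsm1 (-2.09), Tbc1d9 (-1.53) and Tbc1d25 (-1.27) had the largest falls, and Tbc1d31 (0.76), Tbc1d7 (0.69) and Rabgap1l (0.45) the largest rises. Sgsm1 was low throughout, at 0.520 to 1.55 CPM in libraries labelled Ccne1, highest in replicate 3, and 0.150 to 0.227 CPM in those labelled Vgll3. Its fall rests on 107 against 19 counts, with the filter passed only through the Ccne1-labelled libraries. Tbc1d9 measured 27.7 to 38.6 CPM in libraries labelled Ccne1 and 10.1 to 13.6 CPM in those labelled Vgll3. Usp6nl (RN-tre), a GAP for RAB5, fell by 0.88 on the log2 scale.

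Among the lists of regulators, effectors held the widest range of log2 fold changes. Of them 43 of 55 were tested, 14 rose and 19 fell. Sytl2, a RAB27 effector that tethers secretory vesicles at the plasma membrane, measured 0.364, 0.654, 0.464 and 0.218 CPM in libraries labelled Ccne1 and 9.64, 8.77 and 8.70 CPM in those labelled Vgll3 (log2 fold change 4.34 ± 0.31 and edgeR adjusted p = 1.33e-05). It was low in all libraries of the first group and even across the second. Rph3al (Noc2), which binds RAB3 and RAB27, went the other way, from 1.33 to 1.79 CPM to 0.0429 to 0.335 CPM. Its log2 fold change was -3.28 ± 0.61 (edgeR adjusted p = 0.00198), and -4.38 without Vgll3 replicate 3. This fall rests on 213 against 15 counts, and Rph3al passed the filter on low counts only through the Ccne1-labelled libraries.

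Rab11fip1, a RAB11 effector in the recycling of receptors and integrins, measured 43.4, 68.8, 59.0 and 53.4 CPM in libraries labelled Ccne1 and 13.2, 10.9 and 12.9 CPM in those labelled Vgll3 (log2 fold change -2.19 ± 0.16 and edgeR adjusted p = 1.74e-05). Plekhm1, a RAB7 effector in lysosome fusion, fell by 2.05 on the log2 scale. Of the RAB5 effectors, Rabep1 fell by 0.55 and Rabep2 by 0.45, Rbsn rose by 0.34 and Appl1 by 0.47. Eea1 (log2 fold change 0.07 and edgeR adjusted p = 0.532) and Appl2 (-0.45 and edgeR adjusted p = 0.0840) were not called. Mical1, which binds RAB1, RAB8 and others and oxidises actin, rose by 1.23, and Lrrk1, a kinase that phosphorylates RAB7, rose by 0.96 on the log2 scale. Over the 139 regulators and effectors tested, without the RAB-like genes, 30 rose and 60 fell, which is 64.7% called beside 51.9% of all genes, with a median log2 fold change of -0.18 beside 0.01.

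Members were also set against their chromosomes. The median log2 fold change of the other tested genes on a member's chromosome ran from -0.33 (chromosome 17) to 0.44 (chromosome 4). After that median was subtracted, 30 of the 32 called members kept their sign. The exceptions were Rab2a on chromosome 4, where the difference became -0.10, and Rab43 on chromosome 6, where the median was 0.39 and the difference became -0.16. Rab38 on chromosome 7 and Rab15 on chromosome 12 stood at 6.63 and -1.79 after the subtraction. Keeping the sign does not mean keeping the size. On chromosome 17, Rab31, Rab11b and Rab5a shrank to -0.12, -0.19 and -0.26. On chromosome 11, where the median was -0.30, Rab5c and Rab1a shrank to -0.17 and -0.25. Other falls grew, among them Rab21 and Rab5b on chromosome 10, to -0.62 and -0.42.

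Because VGLL3 binds TEAD factors, RefSeq promoter windows (GRCm38.p6, 250 bases before to 50 after a transcript start in RefSeq, which can lie inside the GENCODE gene bounds given above) were searched for GGAATG on either strand, the core letters of the TEAD motif, whose reverse complement is CATTCC. Of 32851 windows of all genes, 14.7% held it, and of 60 windows of 48 members, 7 did (11.7%). By gene, 7 of the 48 members held it in some window, beside 16.6% of the 27025 genes with a window. The other 11 members, Rab38 among them, were not searched. Stretches of 30 bases around the match, read on the gene's strand with the motif in capitals, are shown for the 7 members. All of them fell in the Vgll3-labelled libraries.
Rab15: tgggtgggcgctCATTCCaactccgcctct
Rab20: gggagggGGAATGggaaagaatggggaggg
Rab5a: cgcccccctcttCATTCCtgacgctcctgc
Rab11b: caaaaaggtccgCATTCCttccgcctttct
Rab21: ccgctttgggacCATTCCtcgggccgggcg
Rab11a: tccactcctgcgCATTCCaccctgcctagc
Rab13: tactctgttcgaatgcaacGGAATGcccgt
The Rab15 stretch lies at chr12:76822744-76822773 (minus strand) and the Rab5a stretch at chr17:53479016-53479045 (plus strand). Counted from the RefSeq start of its window, the match began 8 bases before it in Rab11b, 39 bases after it in Rab13, and 86 to 243 bases before it in the other 5. By call, 7 of the 21 members that fell and had a window held the letters, against 0 of 5 that rose, 0 of 12 not called and 0 of 10 not tested. Over all tested genes with a window the shares were 14.3% of 2926 that fell, 13.5% of 2526 that rose and 14.4% of 4563 not called. The calls are those with which the family was picked, so nothing is read from the split by call. A match of 6 letters is a description of the window and no evidence of binding.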

How the data were processed

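The authors deposited estimated counts by Ensembl gene for 7 polyA libraries, made with Salmon on mm10, per the submitters' processing notes. The version of Salmon, the annotation used and strand handling are not stated in the labels, so overlapping and antisense genes, and near-identical copies, are uncertain. All values were whole. Groups came from the sample titles.

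Symbols, exon lengths and coordinates (1-based) came from GENCODE M21 (GRCm38). Genes were filtered with filterByExpr and tested with edgeR 4.0.16 (R 4.3.3) (TMM scaling, group as the single term, robust quasi-likelihood F test), with Benjamini-Hochberg adjustment over all 13740 genes tested and a threshold of 0.05. The biological coefficient of variation was 20.7%. Standard errors were taken as the size of the log2 change over the square root of its F statistic. No library was a copy of another: chi-square over its degrees of freedom was 11.7 to 88.9 for pairs of 1 group. Alternatives used DESeq2 1.42.0, limma 3.58.1 (voom), RLE size factors, no low-count filter, the replicate number as a block, and each library left out; total-count scaling was chosen after seeing the data.

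The members, role groups and regulator lists were chosen with earlier results of these data known. Named by rule were members called with at least a 2-fold change, the 5 highest per length, the largest rise and fall of each role, and the 3 largest rises and falls of each regulator list, of which some genes are not reported here. Other genes, among them Rab32, Rab8a, Hps1, Hps4, Ankrd27, Mon1a, Mon1b, Ccz1, Rin1, Rabgef1, Gapvd1, Usp6nl, Rabep1, Rabep2, Rbsn, Appl1, Eea1 and Appl2, and the other members given with values, were named after their values were seen. Codon positions at the coding ends stand in place of a comparison of protein sequences, which were not used here.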

Additional observations from a re-analysis of the deposited data

Results flagged for a closer look

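Of 92 RAB genes, named regulators, markers and label genes checked in the 4 Ccne1-labelled libraries, 7 had 1 library far from the other 3, where chance flags about 1 in 20 groups. Rab10 measured 170 CPM in Ccne1 replicate 1 and 188.9 to 191.7 CPM in the others. Rab1a was also lower in replicate 1, at 187.2 CPM against 208.4 to 210.5 CPM. Vgll3 measured 37.95 CPM in replicate 1 against 54.3 to 56.21 CPM. Rab43 was higher in replicate 2, at 45.25 CPM against 41.59 to 41.9 CPM. In replicate 3, Rab13 measured 27.28 CPM against 23.83 to 24.16 CPM, Sgsm1 1.548 CPM against 0.5197 to 0.637 CPM, and Tbc1d7 4.304 CPM against 3.869 to 3.913 CPM. Groups of 3 libraries were not checked in this way.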

How the results depend on the processing

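Over 13 alternative analyses, 20 of the 32 called members were called in each, 12 were not called in at least 1, and 0 changed direction; of the 15 members not called, 5 (Rab10, Rab33b, Rab3b, Rab6a and Rab7) were called in at least 1. The number of members that rose, 7, was 10 with DESeq2 and with total-count scaling, and ran from 5 to 11 when 1 library was left out, with 11 without Vgll3 replicate 3; the number that fell, 25, ran from 21 to 24. The replicate numbers do not pair the libraries (correlations of same-numbered libraries -0.15, -0.17 and -0.10). With the replicate block, 4 members rose and 17 fell, the prenylation and GDI genes called numbered 1 in place of 3 and the GEFs 13 in place of 23, and Rab13, Rab20, Rab39b, Rab5b, Rab8a, Chm, Sgsm1, Tbc1d7, Rabgef1 and Rabep2 lost their calls in that analysis alone. RAB-like genes called numbered 2 in place of 1 with limma-voom, and 1 to 2 when 1 library was left out. The ratio of the summed RAB level, 0.938, ran from 0.908 without Vgll3 replicate 1 to 0.976 without Vgll3 replicate 3. Rab38 ran from 6.41 to 7.07 and Rab15 from -1.77 to -1.48 in log2 fold change. The causes were not tested. Counts were too low to test 12 members, and Rab37 had 15 counts over the 3 Vgll3-labelled libraries.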
